A study of Mus musculus with 7 samples.

Results

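The chromatin around 10 epithelial genes (Cdh1, Epcam, Ocln, Cldn4, Cldn7, Krt8, Krt18, Esrp1, Grhl2 and Dsp) was followed with ATAC-seq peaks while mouse embryonic fibroblasts (MEFs) were reprogrammed. Every peak overlapping the gene body, or lying within 20 kb of either end of it, was taken, which gave 59 of the 104346 merged open regions of the series for 10 of its 21938 annotated protein-coding genes. A merged region is a stretch covered by touching or overlapping peaks of any of the 7 libraries. Krt8 and Krt18 are neighbours and shared 5 of these regions.

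ATAC-seq marks open chromatin by inserting adapters into accessible DNA with the Tn5 transposase. The MEFs carried doxycycline-inducible Pou5f1, Klf4, Sox2 and Myc (OKSM) at Col1a1, and the transactivator rtTA*M2 that doxycycline switches on at ROSA26, so every MEF-derived library shares both alleles. They were collected on day 0 without doxycycline and after 1, 2, 3, 6 and 9 days at 2 µg/mL. Untreated embryonic stem cells (ESCs) of the Bruce-4 line formed the end point. Their genotype label repeats that of the MEFs, although they are another line. Each time-point is 1 library with no replicate, so no test between time-points could be made, and cell line and cell state cannot be told apart in ESCs. A treated plate may hold cells at different stages, and fewer cells with an open site cannot be told apart from a less open site.

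Reprogramming of fibroblasts passes through a mesenchymal-to-epithelial transition, in which cells give up the migratory, spindle-shaped state and build contacts with their neighbours. E-cadherin of the adherens junctions, occludin and the claudins of the tight junctions, the simple-epithelial keratins and the desmosome carry these contacts. Snail and Zeb factors repress many epithelial genes by binding E-box sequences in mesenchymal cells, and grainyhead-like factors activate them in epithelia. ESCs are themselves held together by E-cadherin.

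The peak lists held 27074 peaks in ESCs and 33007 to 61241 in the MEF-derived libraries, with no score or read count, so the read depth is unknown and a missing peak says only that none was called. The labels were compared with peaks within 1000 bp of a transcription start site (TSS). Of 6 fibroblast markers, 5 had a TSS peak on day 0, 3 on day 9 and 0 in ESCs. Of 6 ESC markers, only 2, Pou5f1 and Zfp42, had one in the ESC library, whereas 3 had one on day 0, and Nanog had none in any library. The ESC list thus lacks peaks at most of its defining promoters, and the counts of regions are therefore also given without that library.

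Regions were classed by the libraries in which they held a peak. Transient regions had a peak on at least 1 doxycycline day and none on day 0 or in ESCs. The 4 transient regions open on every one of the 5 doxycycline days lay at Cdh1, Cldn4 and Grhl2, and they are shown first because no other transient region of these genes was seen in as many libraries. Given are the central 200 bases in mm10, on the plus strand and 5′ to 3′, at chr8:106599702-106599901 upstream of Cdh1, chr8:106631783-106631982 in its intron 2, chr5:134960667-134960866 upstream of Cldn4, and chr15:37317870-37318069 in intron 8 of Grhl2. Capitals mark a match to GGGTGTGG, the Klf motif searched.
Cdh1 upstream: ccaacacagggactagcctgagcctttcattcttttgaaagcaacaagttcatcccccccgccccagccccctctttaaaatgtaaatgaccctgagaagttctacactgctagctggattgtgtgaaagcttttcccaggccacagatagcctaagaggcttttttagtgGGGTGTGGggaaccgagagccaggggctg
Cdh1 intron 2: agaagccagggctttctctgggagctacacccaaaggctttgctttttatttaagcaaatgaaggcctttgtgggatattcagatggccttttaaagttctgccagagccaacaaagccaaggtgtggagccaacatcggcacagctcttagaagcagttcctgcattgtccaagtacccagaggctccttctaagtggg
Cldn4 upstream: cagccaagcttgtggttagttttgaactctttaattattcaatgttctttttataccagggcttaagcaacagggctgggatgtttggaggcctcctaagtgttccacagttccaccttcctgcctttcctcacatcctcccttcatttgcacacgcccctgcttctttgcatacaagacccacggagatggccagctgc
Grhl2 intron 8: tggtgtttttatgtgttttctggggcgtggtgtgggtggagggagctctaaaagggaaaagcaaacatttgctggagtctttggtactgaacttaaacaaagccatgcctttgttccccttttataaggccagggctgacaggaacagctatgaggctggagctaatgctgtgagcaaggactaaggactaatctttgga

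The opposite group opened in ESCs alone. It counted 10 regions, of which 6 held the E-box CAGGTG in their central 200 bases, beside 31.6% of all ESC-alone regions. The exact 95% interval of the member share, 26.2 to 87.8%, includes that background. Of these 6 regions, 4 lie outside promoters and untranslated regions. They are shown in the same way, with the E-box (CACCTG on the other strand) and 1 match to the Sox motif CATTGTT in Grhl2 in capitals. They lie at chr15:37238778-37238977 in intron 1 and chr15:37289700-37289899 in intron 6 of Grhl2, at chr13:38155667-38155866 in intron 1 of Dsp, and at chr15:102013816-102014015 between Krt8 and Krt18.
Grhl2 intron 1: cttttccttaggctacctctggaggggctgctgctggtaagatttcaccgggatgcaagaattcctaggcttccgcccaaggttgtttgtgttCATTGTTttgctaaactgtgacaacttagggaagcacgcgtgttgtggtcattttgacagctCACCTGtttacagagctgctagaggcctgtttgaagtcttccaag
Grhl2 intron 6: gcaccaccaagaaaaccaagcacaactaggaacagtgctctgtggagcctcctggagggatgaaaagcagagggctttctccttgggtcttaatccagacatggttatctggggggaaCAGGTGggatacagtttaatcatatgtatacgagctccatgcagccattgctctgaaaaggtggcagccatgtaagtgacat
Dsp intron 1: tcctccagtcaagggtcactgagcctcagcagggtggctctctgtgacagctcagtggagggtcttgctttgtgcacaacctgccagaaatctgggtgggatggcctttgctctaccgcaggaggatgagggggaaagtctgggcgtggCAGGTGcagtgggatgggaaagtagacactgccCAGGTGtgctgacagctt
Krt8 to Krt18: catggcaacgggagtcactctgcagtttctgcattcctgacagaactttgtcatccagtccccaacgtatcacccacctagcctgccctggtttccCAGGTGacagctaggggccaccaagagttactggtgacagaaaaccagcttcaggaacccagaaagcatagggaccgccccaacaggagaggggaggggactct

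At the TSSs the members had few peaks for most of the time course. Of the 10 genes, 1 had a TSS peak in each library from day 0 to day 3, 2 had one in those of days 6 and 9, and 4 had one in ESCs. The gene changed from library to library, with Dsp on day 0, Krt8 on day 1, Esrp1 on days 2 and 3, Krt8 and Dsp on day 6, and Esrp1 and Dsp on day 9. Over all protein-coding genes the share with a TSS peak was, in the same order from day 0 to ESCs, 58.4%, 54.5%, 50.5%, 55.2%, 56.2%, 52.3% and 49.3%. The members therefore stayed at 10.0 to 20.0% in the MEF-derived libraries and reached 40.0% in ESCs, the library with the fewest peaks. Cdh1, Ocln and Cldn7 had a TSS peak in ESCs and in no other library, a pattern that 1.34% of all genes showed. Among genes with an ESC TSS peak, 2.71% had none earlier, against 3 of the 4 members with one. Epcam, Cldn4, Krt18 and Grhl2 had no TSS peak in any library, which was also true of 36.1% of all genes.

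**Figure D1:**
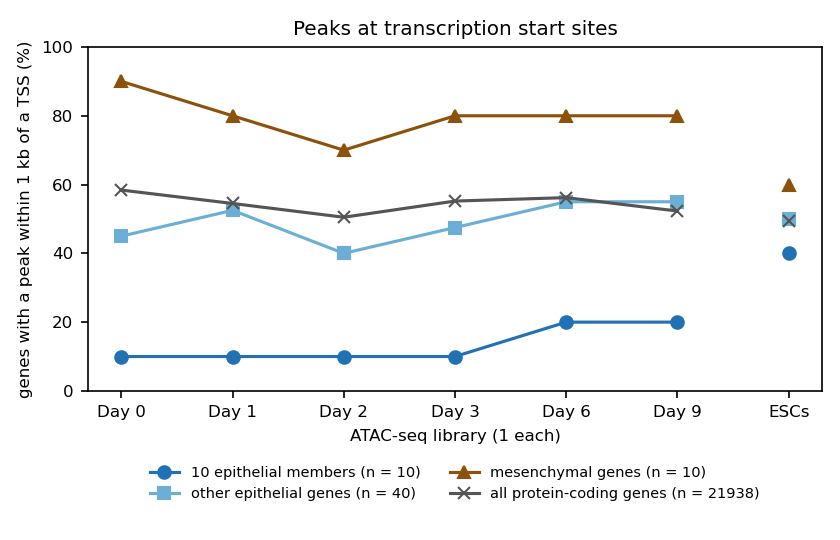
Percentage of genes with a peak within 1 kb of a TSS (vertical axis) in each ATAC-seq library (horizontal axis, 1 library each) for the 10 members, 40 other epithelial genes, 10 mesenchymal genes and all 21938 protein-coding genes; ESCs are not joined to the MEF series because they are another line. The members sit at 10.0 to 20.0% up to day 9 and at 40.0% in ESCs, below the other groups in every library.

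The list of 40 other epithelial genes did not share this pattern. Between 16 (day 2) and 22 (days 6 and 9) of them had a TSS peak. A TSS peak in all 7 libraries was present at 10 of the 40 (25.0%), at no member and at 41.7% of all genes. Esrp2, a splicing factor of the same family as Esrp1, and Spint1, an inhibitor of membrane serine proteases, matched Cdh1, Ocln and Cldn7 with a TSS peak in ESCs alone. No other gene of this list matched Krt8, Esrp1 or Dsp. Their patterns were rare throughout, with 22, 3 and 20 other genes (0.100%, 0.0137% and 0.0912% of all genes). In the list of 10 mesenchymal genes, 9 had a TSS peak on day 0 and 6 in ESCs. Those 6 had one in all 7 libraries (60.0%, beside 41.7% of all genes). Twist2, Zeb1 and Zeb2, transcription factors of the mesenchymal state, had one on day 0 and none in ESCs, as did 11.8% of all genes. Twist2 kept it to day 6, Zeb2 lacked it on day 2 alone among the MEF-derived libraries, and Zeb1 had it on days 0 and 9.

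Peaks were next counted over the whole window, which includes the TSSs of the members and some TSSs of other genes. Of the 10 members, 8 had a peak in their window in the libraries of days 0 and 2, and 9 in each of the other libraries. Over all genes the share was, from day 0 to ESCs, 80.4%, 77.2%, 73.6%, 78.4%, 77.8%, 74.2% and 73.0%. The median window of the members spanned 71217.5 bp and that of all genes 57425 bp, so densities were compared per length. On day 0 the member windows held 26 peaks, or 3.37 per 100 kb, beside 3.26 for all genes and 4.21 for the mesenchymal list. On days 1, 2 and 3 they held 25, 23 and 33 peaks (3.24, 2.98 and 4.28 per 100 kb) beside 2.53, 1.89 and 2.65 for all genes. On days 6 and 9 they held 31 and 23 (4.02 and 2.98 per 100 kb) beside 2.51 and 1.88, and in ESCs 23 (2.98 per 100 kb) beside 1.51. Between day 0 and ESCs the density thus went from 3.37 to 2.98 around the members, from 3.26 to 1.51 around all genes, from 5.34 to 3.20 around the other epithelial genes and from 4.21 to 1.58 around the mesenchymal list.

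Of the 59 member regions, 7 were open in all 7 libraries (11.9%, beside 12.6% of the 76504 regions within 20 kb of any protein-coding gene). A further 7 were open on day 0 alone (11.9% beside 22.2%), 7 on day 0 and on doxycycline but not in ESCs (11.9% beside 20.7%), and 5 on day 0 and in ESCs with a gap between (8.47% beside 2.75%). Transient regions numbered 21 (35.6% beside 30.1%), 2 regions opened on doxycycline and were open in ESCs (3.39% beside 3.19%), and 10 were open in ESCs alone (16.9% beside 8.40%). The exact 95% interval of the ESC-alone share was 8.44 to 29.0% and that of the transient share 23.6 to 49.1%. These intervals cover counting error only, and regions of 1 gene are not independent. In the list of other epithelial genes, 20 of 261 regions (7.66%) were open in ESCs alone.

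**Figure D2:**
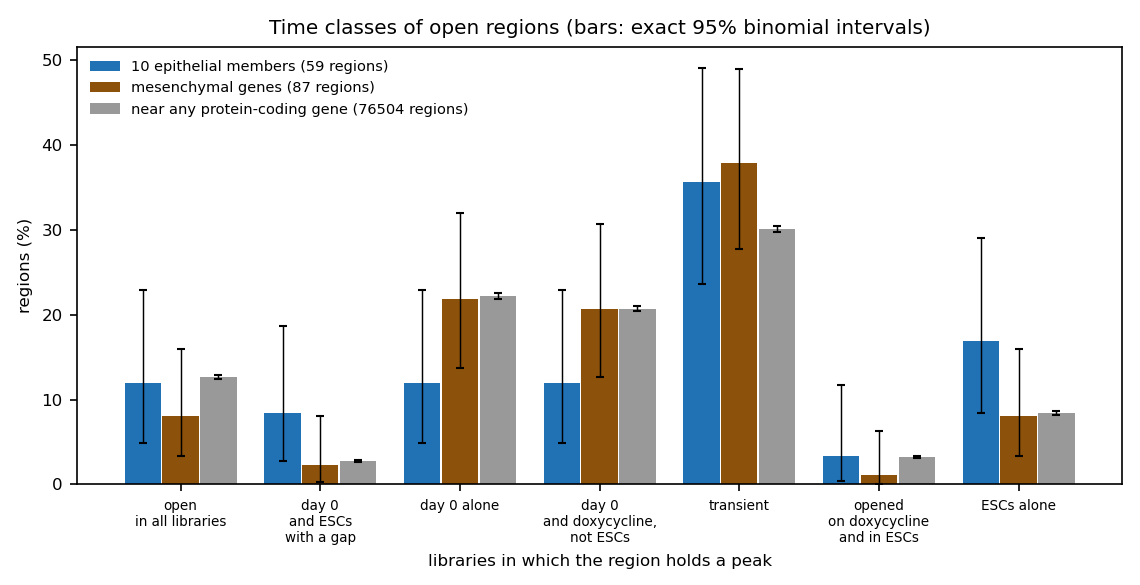
Percentage of regions (vertical axis, from 0) in each time class (horizontal axis) for the 59 regions of the 10 members, the 87 regions of the mesenchymal list and the 76504 regions within 20 kb of any protein-coding gene; bars carry exact 95% binomial intervals. ESC-alone regions made up 16.9% of the member regions and 8.40% of those near any gene, while day 0 alone made up 11.9% and 22.2%.

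By first day of opening, 26 of the 59 regions were already open on day 0 (44.1%, beside 58.3% near any gene) and 9 opened on day 1 (15.3% beside 15.5%). Day 2 added 3 (5.08% beside 3.32%), day 3 added 3 (5.08% beside 7.44%), day 6 added 6 (10.2% beside 5.19%) and day 9 added 2 (3.39% beside 1.86%). ESCs added the 10 given above. Every member had at least 1 transient region, as did 58.8% of all genes. Of the 21 transient member regions, 11 were seen in a single library (52.4%, beside 55.8% near any gene). A single peak of 200 bp, the narrowest width in the files, made up 5 of the 59 regions (8.47% beside 14.2%). Without the ESC library 49 regions remained, of which 23 had opened after day 0.

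**Figure D3:**
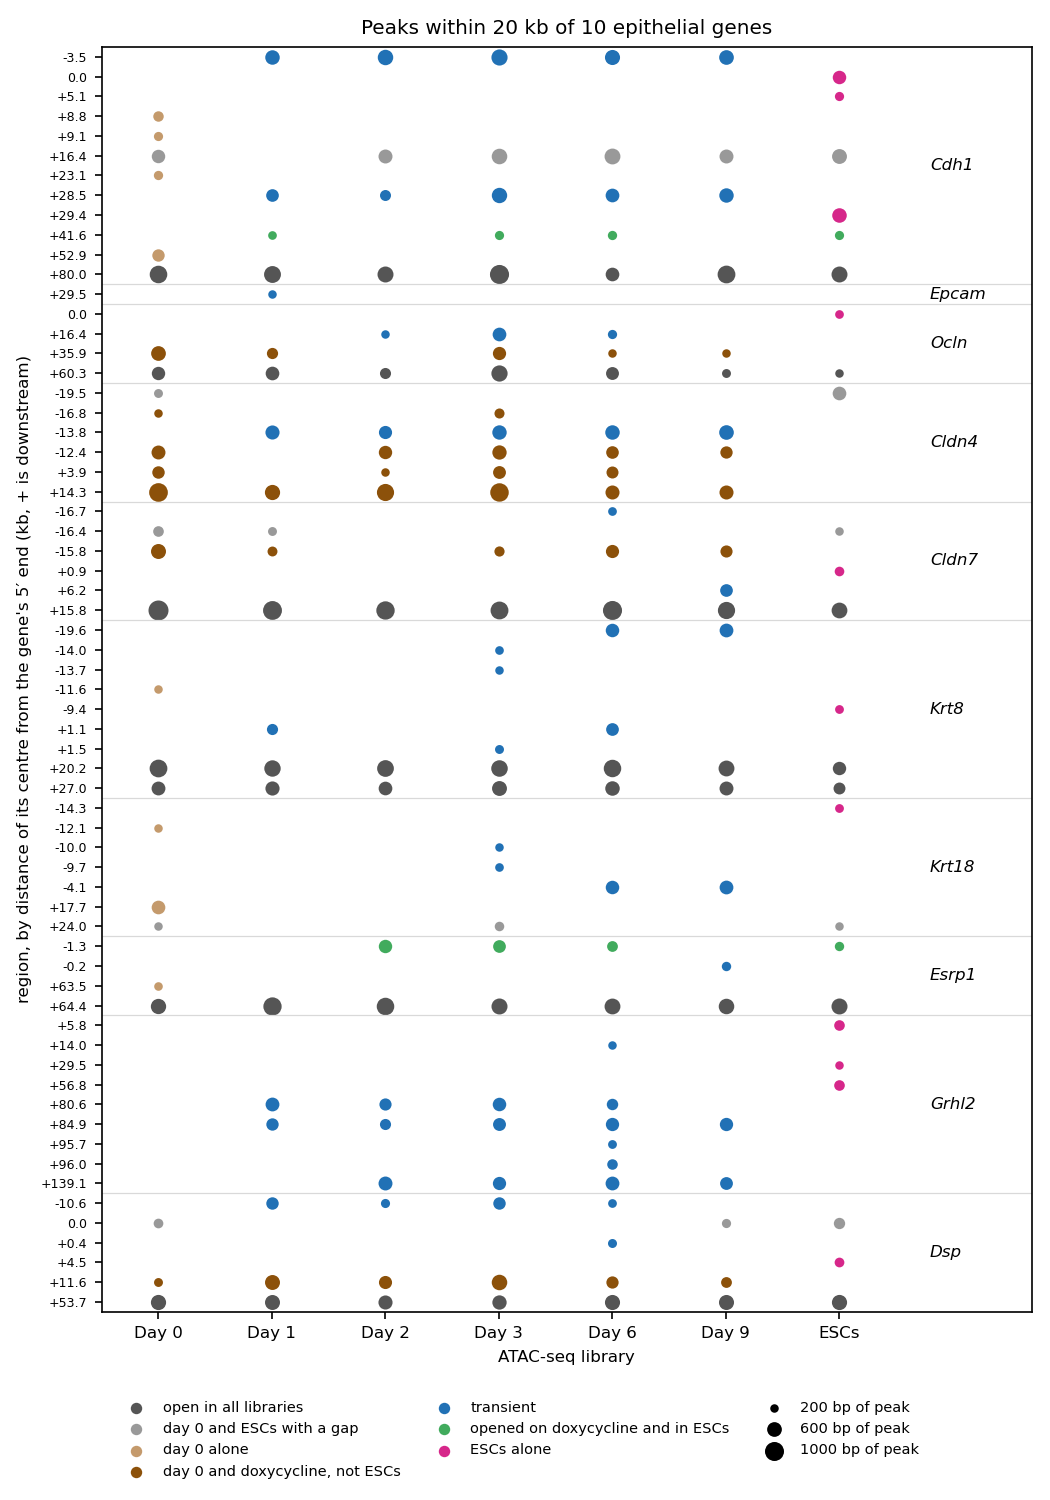
Each row is a region of a member, placed by the distance of its centre from the 5′ end of the gene in kb (vertical axis, genes separated by lines), and each column a library; dot area follows the summed peak width in bp and colour the time class. The blue rows with 5 dots are the 4 regions open on every doxycycline day, and pink dots are the 10 regions open in ESCs alone (1 of them drawn under both Krt8 and Krt18).

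Cdh1 (E-cadherin, chr8:106603351-106670246, plus strand) encodes the adhesion molecule of adherens junctions and had the most regions of all members, 12. Its TSS held a single peak of 502 bp in ESCs, at chr8:106603080-106603581, spanning the promoter, exon 1 and the start of intron 1, and no peak there in any MEF-derived library. Upstream, chr8:106599425-106600178 ended 3173 bp before the TSS and held peaks of 580, 661, 721, 629 and 596 bp on days 1, 2, 3, 6 and 9. This upstream region had no peak on day 0 or in ESCs, so its opening on doxycycline and the ESC peak at the promoter did not coincide in any library. In intron 2, chr8:106631557-106632209 held peaks of 243 and 200 bp on day 1 and single peaks of 335, 653, 521 and 575 bp on days 2, 3, 6 and 9. A neighbouring ESC peak of 586 bp, at chr8:106632482-106633067, lay in the same intron and did not overlap it. The gap between them was under 300 bp. Merging peaks within 300 bp joined them, which left 3 regions open on every doxycycline day and neither on day 0 nor in ESCs. The intron 2 region chr8:106644725-106645187 was open on days 1, 3 and 6 and in ESCs, and chr8:106619403-106620097 in every library but day 1. Day 0 alone held 4 peaks in the gene body, in introns 2 and 5.

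Epcam (chr17:87635979-87651129, plus strand), an adhesion molecule of epithelia and of ESCs, was the least open member. Its only region was a 200 bp peak of day 1 at chr17:87665358-87665557, downstream of the gene. The nearest peak to its TSS lay between 22196 and 33914 bp away over the 7 libraries, outside the 20 kb window in each. A region open in all 7 libraries lay 20921 bp from the gene body, just outside the window. Of all genes, 21.4% had 0 or 1 region in their window.

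**Figure D4:**
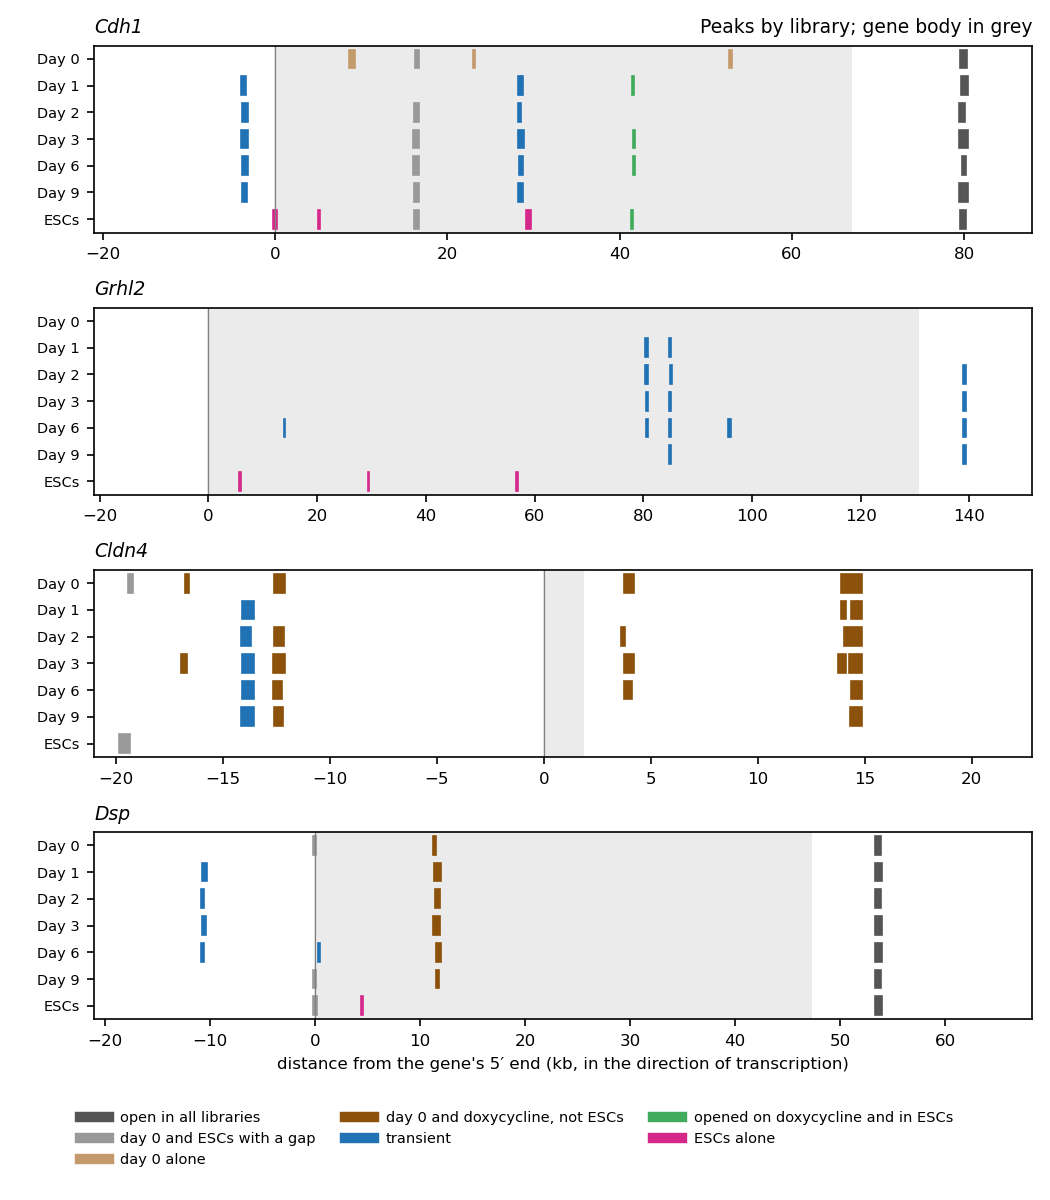
Peaks of each library (lanes) by distance in kb from the 5′ end of the gene, in the direction of transcription, at Cdh1, Grhl2, Cldn4 and Dsp; the gene body is grey, colours give the time class of the region, and outlines add a thin fixed margin to each peak. The blue columns that run from day 1 to day 9 at Cdh1, Grhl2 and Cldn4 are absent from the lanes of day 0 and ESCs.

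The tight junction genes divided into those with an ESC peak at the TSS and one without. Ocln (occludin, chr13:100496507-100552718, minus strand) had a 210 bp ESC peak over its TSS at chr13:100552586-100552795. In the MEF-derived libraries its nearest peak lay 15898 bp or more from the TSS. A region of intron 3, chr13:100536043-100536562, was open on days 2, 3 and 6 with peaks of 200, 520 and 236 bp. Cldn7 (chr11:69964779-69967885, plus strand), a claudin, had a 256 bp ESC peak at chr11:69965517-69965772, 121 bp from its nearest TSS, in intron 1 of the longest transcript and over an exon and untranslated region of another. On day 9 a 445 bp peak appeared 3814 bp from its nearest TSS, and on days 0 to 6 none was nearer than 13108 bp. The other 4 regions of Cldn7 lay at the TSSs of Slc2a4, Ctdnep1 and Elp5.

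The 250 bases before the start of Ocln and Dsp are printed because both carried an ESC peak. They come from RefSeq promoters on GRCm38 (mm10), in which 7 of the 10 members were found, at chr13:100552719-100552968 (minus strand) and chr13:38151044-38151293 (plus strand). Capitals mark the bases under the ESC peak, 77 of 250 for Ocln and 167 of 250 for Dsp.
Ocln promoter: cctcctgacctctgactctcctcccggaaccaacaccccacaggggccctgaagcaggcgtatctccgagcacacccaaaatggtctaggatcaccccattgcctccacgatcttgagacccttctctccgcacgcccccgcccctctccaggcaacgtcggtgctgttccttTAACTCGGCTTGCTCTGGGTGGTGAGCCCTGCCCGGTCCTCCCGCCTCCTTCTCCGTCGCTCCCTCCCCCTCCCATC
Dsp promoter: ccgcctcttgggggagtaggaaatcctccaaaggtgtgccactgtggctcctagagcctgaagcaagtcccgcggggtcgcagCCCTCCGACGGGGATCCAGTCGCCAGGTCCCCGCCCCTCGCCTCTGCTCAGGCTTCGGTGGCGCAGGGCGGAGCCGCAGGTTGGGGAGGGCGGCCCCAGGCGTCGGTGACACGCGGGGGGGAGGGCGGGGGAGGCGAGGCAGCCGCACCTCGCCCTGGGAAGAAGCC

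Cldn4 (claudin-4, chr5:134945119-134946934, minus strand) had no TSS peak in any library. The region chr5:134960460-134961073, 13526 bp upstream, held peaks of 550, 479, 573, 579 and 592 bp on days 1, 2, 3, 6 and 9, and none on day 0 or in ESCs. Next to it, chr5:134959012-134959600 was open on day 0 and on days 2, 3, 6 and 9. In ESCs the whole window held 1 peak, of 516 bp, at its upstream edge (19207 bp from the gene body). Of its 6 regions, 5 were open in the libraries of days 0 and 3, 4 in those of days 2 and 6, 3 in that of day 9, 2 in that of day 1 and 1 in that of ESCs. One of its regions lay at the TSS of Mettl27.

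Krt8 (chr15:101996698-102004482, minus strand) and Krt18 (chr15:102028180-102032027, plus strand) encode the paired type II and type I keratins of simple epithelia. Krt8 had TSS peaks of 344 bp on day 1 and 448 bp on day 6, both in intron 1 at chr15:102003127-102003574 and 973 and 908 bp from the TSS, near the limit of 1000 bp. A 222 bp peak of day 3 lay beside it, 1382 bp from the TSS. Krt18 had no TSS peak. Its nearest was the region chr15:102023800-102024330 between both genes, open on day 6 (504 bp) and day 9 (525 bp) and 3850 bp from the TSS of Krt18 at its closest. The space between the genes also held 200 bp of day 0, 200 and 208 bp of day 3 and 215 bp of ESCs, each in 1 library. Krt18 had no peak in its window on days 1 and 2.

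Among the regulators, Esrp1 (chr4:11331933-11386783, minus strand), a splicing factor of epithelial transcripts, opened upstream of its start on day 2. The region chr4:11387703-11388385 held peaks of 497, 449 and 322 bp on days 2, 3 and 6 and of 243 bp in ESCs, and none on days 0, 1 and 9. These peaks began 925, 920, 1169 and 1360 bp from the TSS, so that only those of days 2 and 3 counted as TSS peaks. On day 9 a separate peak of 244 bp lay 35 bp from the TSS. The centre of the upstream region, chr4:11387944-11388143 (plus strand), is shown because it is 1 of only 2 member regions that opened on doxycycline and were open in ESCs. Capitals mark a Klf match on the minus strand at position 1 and an E-box at position 181, counted from the first base printed. The ESC peak, chr4:11388143-11388385, covers only the last base printed, so both matches lie outside it.
Esrp1 upstream: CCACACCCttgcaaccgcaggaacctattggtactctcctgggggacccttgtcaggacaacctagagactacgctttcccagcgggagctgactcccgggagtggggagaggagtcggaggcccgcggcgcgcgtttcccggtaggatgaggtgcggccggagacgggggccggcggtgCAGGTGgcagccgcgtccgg

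Grhl2 (chr15:37233036-37363569, plus strand), a grainyhead-like transcription factor of epithelia, had no region open on day 0 and no TSS peak. Of its 9 regions, 6 were transient and 3 were open in ESCs alone. In intron 8, chr15:37317695-37318245 held peaks of 422 and 341 bp on days 1 and 2, of 262 and 200 bp on day 3, and of 488 and 489 bp on days 6 and 9. The neighbouring chr15:37313380-37313967 was open on days 1, 2, 3 and 6, and chr15:37371882-37372422, downstream of the gene, on days 2, 3, 6 and 9. The 3 ESC peaks, of 312, 200 and 313 bp, lay in introns 1, 1 and 6. No Grhl2 region was therefore shared between the doxycycline days and ESCs.

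Dsp (desmoplakin, chr13:38151294-38198577, plus strand), which anchors intermediate filaments to desmosomes, was the only member with a TSS peak on day 0. The TSS region chr13:38151127-38151481 was open on day 0 (260 bp), on day 9 (234 bp) and in ESCs (355 bp), and a separate peak of 225 bp lay 253 bp from the TSS on day 6. No TSS peak was called on days 1, 2 and 3, although the upstream region chr13:38140470-38140998 was open on days 1, 2, 3 and 6 and absent on day 9. In intron 1, the merged region chr13:38162546-38163277 held a peak in all 6 MEF-derived libraries and none in ESCs. Its peaks of day 0 (chr13:38162581-38162800) and day 6 (chr13:38162863-38163277) did not overlap each other. The ESC-alone peak of 262 bp lay in the same intron.

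Of the remaining neighbours of the members, Tango6 lay by Cdh1, Gtf2h2 by Ocln, Dpy19l4 by Esrp1 and Snrnp48 by Dsp, each with a member region at its TSS that was open in all 7 libraries. With Ctdnep1 and Elp5, which share a region, they account for 5 of the 7 member regions open throughout. In all, 9 member regions lay at the TSS of another gene. Without them, 20 of 50 regions were transient (40.0%) and 10 of 50 were open in ESCs alone (20.0%).

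Regions open on every doxycycline day, and neither on day 0 nor in ESCs, were 4 of the 59 beside 2.72% of those near any gene. In the list of other epithelial genes they were 13 of 261, and in the mesenchymal list 2 of 87. Of the 10 members, 3 had one, beside 10.6% of all genes. The member windows were longer, as given above, and held a median of 6 regions beside 4 for all genes. Leaving out the ESC library gave 4 as well, a number that this step could not lower.

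A set of 7 motifs was searched on both strands in the central 200 bases of each region, over the 104248 regions on chromosomes 1 to 19, X and Y. The E-box CAGGTG was in 9 of the 59 member regions (15.3%) beside 11.7% of all regions. It was in 6 of the 10 ESC-alone member regions (60.0%, exact 95% interval 26.2 to 87.8%) beside 31.6% of all 10159 ESC-alone regions, so the interval includes the background. It was in 0 of the 21 transient member regions, which allows a share of up to 14.3% (3 counts of the total; exact 95% upper limit 16.1%), beside 10.4% of all transient regions. The Cdh1 promoter peak held 3 copies, the ESC-alone region of Dsp intron 1 held 2, and the Ocln TSS peak, both Grhl2 introns and the Krt8 to Krt18 region held 1 each.

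**Figure D5:**
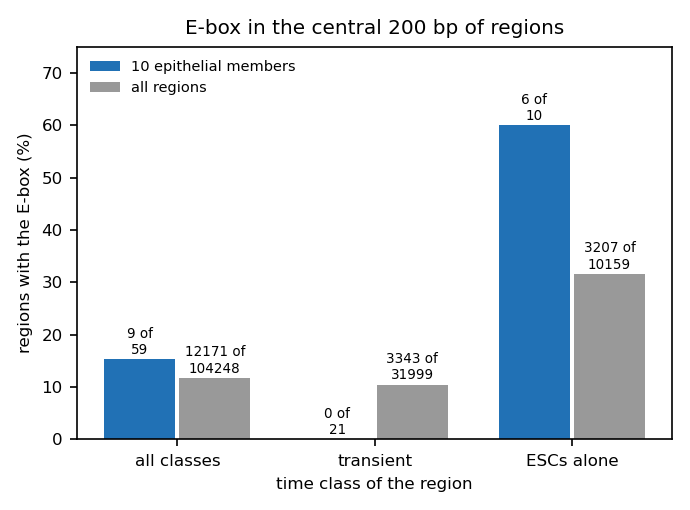
Percentage of regions whose central 200 bp hold the E-box on either strand (vertical axis, from 0), by time class (horizontal axis), for member regions and all regions, with counts above the bars. It was in 6 of 10 ESC-alone and 0 of 21 transient member regions, beside 31.6% and 10.4% of all regions of those classes.

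The other motifs were counted in the same way. The AP-1 motif TGANTCA was in 9 of 59 regions (15.3% beside 16.0%), the Klf motif GGGTGTGG in 4 (6.78% beside 3.44%) and the Sox motif CATTGTT in 5 (8.47% beside 3.74%). The octamer ATGCAAAT was in 0 of 59 (beside 2.28%), as were the grainyhead-like motif AACCNGTT (beside 1.45%) and its exact form AACCGGTT (beside 0.0729%), which the former contains. A count of 0 of 59 allows a share of up to 5.08% (3 counts of the total; exact 95% upper limit 6.06%), above each of these backgrounds. Median GC content was 57.2% in the 10 ESC-alone and 48.5% in the 21 transient member regions, beside 52.0% and 46.0% in all regions of those classes. GC content moved with the class, and its part in the E-box counts was not tested. A motif match describes the sequence and does not show that a factor was bound.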

How the data were processed

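ATAC-seq peaks of 7 mouse libraries, 1 per time-point, were analysed. The authors trimmed reads to 50 bp (Trimmomatic), mapped them to mm10 (Bowtie2, very sensitive end-to-end), removed duplicates (Picard), downsampled all libraries to one depth, which is not stated, and called peaks per library with MACS2. The deposited files hold peak positions (chromosome, start, end) with no score, so depth per peak is unknown. Downsampling equalised read numbers alone, and whether library quality moved the peak numbers was not tested.

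Overlaps of at least 1 bp were counted in Python 3.11.15, checked against BEDTools 2.31.1 (42 of 42 list pairs gave equal counts) and tested on simulated data (1000 of 1000 planted overlaps found for the overlap counts). Genes were those of GENCODE M21, and sequences were read with pysam 0.24.0 from GRCm38; 0 peaks passed a chromosome end. TSSs were those of protein-coding transcripts, with 1000 bp on each side. Intervals are exact (Clopper-Pearson) binomial ones from scipy 1.17.1.

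All members were named. Other epithelial genes were named where their TSS pattern equalled that of a member with some but not all libraries open, mesenchymal genes where open at the TSS on day 0 and without an ESC peak, regions at a member TSS or open on every doxycycline day, and neighbours with a member region at their TSS. Other regions and genes were named after their values were seen. Members and lists were chosen with earlier results of these data known. Alternatives varied the window, peak width, list length, overlap, merging, libraries, TSS definition and neighbours.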

Additional observations from a re-analysis of the deposited data

How the results depend on the processing

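No paired analysis was possible because there was only 1 library per group. A count was taken as unchanged within 1.5 times the value reported. The 59 regions became 28 in the gene bodies alone, 35 with 5 kb, 116 with 50 kb on each side and 37 with peaks of at least 300 bp. The 21 transient regions became 10 in the gene bodies and 39 with 50 kb. The 10 ESC-alone regions became 20 with 50 kb and 6 with peaks of at least 300 bp. The 4 regions open on every doxycycline day became 2 in the gene bodies. They became 6 with days 2 and 9 left out, where only days 1, 3 and 6 had to be open. The other settings gave 3 to 5. In the gene bodies alone 3 members had a peak on day 0, 4 on days 2 and 9, and 5 on days 1, 3 and 6 and in ESCs, while with 5 kb it was 4 on day 0 and 5 on day 1.

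Members with a TSS peak moved in 11 of 35 counts. With peaks of at least 300 bp they numbered 0 on days 0 and 9, 1 on day 6 and 2 in ESCs. Ocln and Cldn7 then had no TSS peak, and that of Dsp came first in ESCs. With each list limited to its 27074 widest peaks they numbered 0 on day 0 and 1 on day 6. With a TSS window of 500 bp they numbered 0 on days 1, 2 and 3 and 1 on day 6, since Krt8 lost its peaks and Esrp1 kept that of day 9. With 2500 bp they numbered 2 on day 3. The number with a TSS peak in ESCs alone stayed at 3, except for 2 with peaks of at least 300 bp. These 2 were Cdh1 and Dsp, so of Cdh1, Ocln and Cldn7 only Cdh1 kept the pattern there. The alternatives for regions open on every doxycycline day and for TSS peaks in ESCs alone were chosen after seeing the data. So was leaving out the ESC library, which gave 49 regions. Of these, 23 were first open after day 0, and 4 were open on every doxycycline day but not on day 0. Of the counts per library of peaks in the member windows, 26 of 42 moved by more than 1.5 times.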

Other observations

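Some of the other epithelial genes had a TSS peak that appeared on doxycycline and was present in ESCs, a course that 1.36% of all genes and 0 of the 10 members showed. The genes given here were chosen after their values were seen. Cldn3, a claudin, and Perp, a desmosomal membrane protein, had a TSS peak in all 5 doxycycline libraries and in ESCs and none on day 0. F11r, a tight junction adhesion molecule, and Spint2, a protease inhibitor, had one on days 1, 6 and 9 and in ESCs. The tight junction gene Cgn and the desmosomal Jup had a TSS peak in all 7 libraries, day 0 included, as did 41.7% of all genes.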
